A study of Homo sapiens with 12 samples.

Results

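PML nuclear bodies are small protein assemblies in the cell nucleus. The mRNAs of 6 genes of these bodies and of the SP100 family were followed through an IFNγ response in neuroblastoma cells. The 6 genes were chosen by name among the 43769 genes of the count table: PML, which builds the bodies, the speckled protein genes SP100, SP110 and SP140L, and the chromatin pair DAXX and ATRX. All 12 libraries came from SK-N-DZ, a MYCN amplified neuroblastoma cell line, carrying a doxycycline inducible hairpin against ARID1A, a subunit of the SWI/SNF chromatin remodeling complex. Control cells (C) received no agent, D cells received doxycycline for 4 days, I cells received IFNγ for 24 hours, and DI cells received both, with 3 replicates in each group. The hairpin line is described as clonal, so the replicates share 1 clone, and no line without the hairpin was given doxycycline here, so the hairpin and the drug cannot be told apart. Nothing in the labels says that replicates were separate cultures, so the p-values measure the spread between these samples, which may be technical.

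As background, PML protein is modified by SUMO, a small ubiquitin-like tag, and then recruits partners that carry SUMO-binding motifs. SP100 is a constant resident of the bodies, and its relatives SP110, SP140 and SP140L share its chromatin-reading domains and are known for high expression in immune cells. DAXX is a chaperone that deposits the histone variant H3.3 together with ATRX, an ATPase of the Snf2 family whose loss marks a group of neuroblastomas that maintain telomeres without telomerase. Interferons have long been known to induce PML and SP100, and the bodies are counted among the defences of the nucleus against DNA viruses. The question asked of each gene was whether its mRNA changed with IFNγ, with hairpin induction, or differently with one in the presence of the other.

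The deposited values were raw counts per gene, with 16469832 to 21790869 counts per library, and are given below as CPM, counts scaled to a common library size with TMM, edgeR's correction for library composition. Of 10 sympathoadrenal markers, 10 reached 1 CPM in every C and I library and 9 in every D and DI library, while 5 leukocyte markers summed to at most 1.247 CPM in any library and CD3E had no count, and 3 epithelial markers summed to at most 2.664 CPM. The summed level of 5 fibroblast and endothelial markers lay at 2.743 to 8.591 CPM in C libraries and 5.922 to 25.74 CPM in I libraries, and with doxycycline at 5.096 to 8.9 CPM (D) and 10.49 to 12.1 CPM (DI). Of these 5, COL1A2, a collagen gene, reached means of 3.55, 4.64, 12.8 and 10.5 CPM in C, D, I and DI, and PECAM1 was at 0 in every library. The part of this list in the IFNγ results was not tested. ARID1A, the target of the hairpin, lay at 158.2 to 196.9 CPM in D, which overlapped the 164.7 to 196.8 CPM of C, and at 133.1 to 151.4 CPM in DI, below the 192 to 202.6 CPM of I (log2 fold change −0.44, SE 0.11, adjusted p = 0.115; 0.0111 when replicate number was a block). The difference of ARID1A between D and C (−0.09, SE 0.109, adjusted p = 0.788) did not pass the test.

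IFNγ raised PML about 3-fold and brought SP110 and SP140L from at most 3 counts per library to levels that were readily counted. SP100 went from 0 counts in all 6 libraries without IFNγ to 9 to 101 counts in the 6 with it, although its adjusted p in the main test missed the threshold. DAXX and ATRX, which were well expressed in every library, did not pass the test for IFNγ. With the hairpin induced, SP110 reached a lower level under IFNγ, a difference that passed the test once the replicate number was a block. In the edgeR quasi-likelihood test across 15828 genes, 3 of the 6 genes were called higher in I than in C (PML, SP110 and SP140L), against 2.1% of all genes tested, and the same 3 were called higher in DI than in D, against 1.67% of all. A gene is called where its Benjamini-Hochberg adjusted p over all genes tested is under 0.05. The main fit had no term for the replicate number, which was a block only where stated. SP100, SP110 and SP140L passed the filter on low counts only through the groups with IFNγ, where they were high. Their separation from C and D is therefore no support of its own. The share of all genes whose libraries separate by IFNγ without overlap was not counted, here or for the genes below. In bulk RNA, more cells expressing a gene and more RNA per cell cannot be told apart.

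**Figure D1:**
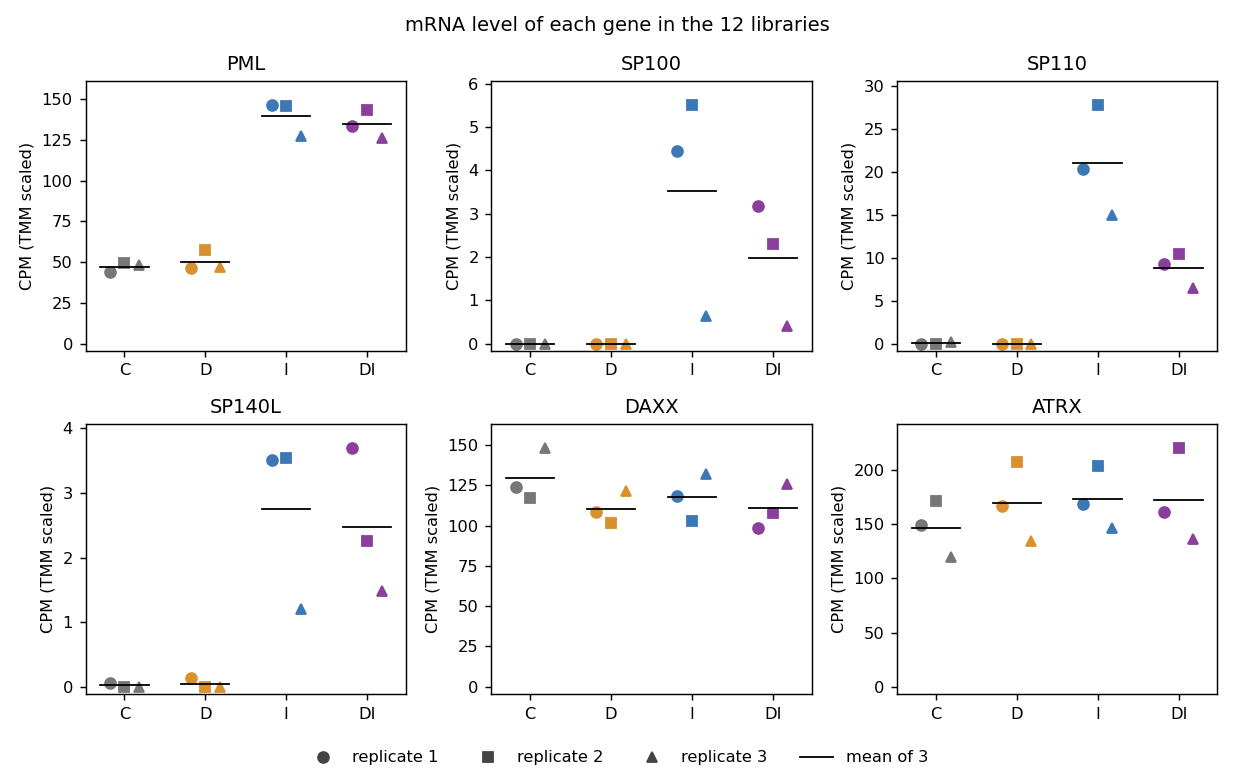
TMM-scaled CPM of each gene (y axis, linear from 0, a scale of its own in each panel) in the 12 libraries, by group (x axis), with marker shape for the replicate number and a line at the mean of 3. PML, SP110 and SP140L separate I and DI from C and D without overlap, SP100 is at 0 in C and D, and DAXX and ATRX overlap in all 4 groups. How many of all genes separate in this way was not counted.

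PML lies at chr15:73994673-74047812 on the plus strand (GRCh38, GENCODE release 29) and encodes the scaffold of the bodies, a member of the tripartite motif family also called TRIM19. PML stood at 43.8, 49.2 and 48.4 CPM in C 1 to C 3 and at 46.6, 57.5 and 46.9 CPM in D. It stood at 146.5, 145.6 and 127.2 CPM in I and at 133.6, 143.5 and 126.4 CPM in DI. The lowest library with IFNγ stood well above the highest without it, and the spread inside each group was small (coefficient of variation 6.17% to 12.4%). The mean rose 2.964-fold from C to I (log2 fold change 1.57, SE 0.111, adjusted p = 7.69e-06) and 2.672-fold from D to DI (1.42, SE 0.111, adjusted p = 1.87e-05). Within each replicate number, the ratio of I to C was 3.34, 2.96 and 2.63, and that of DI to D was 2.87, 2.49 and 2.69. These changes in PML exceeded those of most genes, since 2.44% of genes tested had a higher log2 fold change in I against C.

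Induction of the hairpin moved PML little. Its log2 fold change was 0.09 (SE 0.109, adjusted p = 0.782) in D against C and −0.06 (SE 0.108, adjusted p = 0.915) in DI against I. None of the 6 genes was called in D against C, where 1.23% of all genes were, and none in DI against I, where 0.67% were. The interaction, which asks whether the IFNγ change itself differed with doxycycline, was −0.15 on the log2 scale for PML (SE 0.154, adjusted p = 1). No gene passed the interaction test at all (0%), with 99 genes at an unadjusted p under 0.05 in edgeR and 1 gene called by DESeq2.

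The speckled protein genes form a cluster of 376798 bases on chromosome 2. SP110 (chr2:230167293-230225729) is read from the minus strand, and SP140 (chr2:230203110-230313215), SP140L (chr2:230327184-230403732) and SP100 (chr2:230415942-230544090) follow it on the plus strand. SP110 and SP140 share 170 exonic bases on opposite strands, and whether the counting used strand is not stated, but SP140 had at most 3 counts in any library. How reads that match both SP100 and SP140L were assigned is not stated either, so the split between these close relatives is uncertain.

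The sequences before the start sites of SP110, SP140L and SP100 are shown because a common run of 16 bases was seen in 4 of their 5 windows, after the sequences had been looked at. They were taken from the RefSeq promoter table (GRCh38.p14), which matched 3 of the 6 genes (SP100, SP110 and SP140L), and PML, DAXX and ATRX had no entry. Each line gives 30 bases on the strand of its gene, 5′ to 3′, with the common run in capitals. The run begins 105 bases before SP110 start 1 (minus strand, chr2:230225719-230225748), 51 before SP110 start 2 (minus strand, chr2:230220013-230220042), 87 before the SP140L start (plus strand, chr2:230327099-230327128) and 64 before SP100 start 1 (plus strand, chr2:230416130-230416159).
SP110 start 1: caaagagGAAAAGAAAAGTGAAAttgccta
SP110 start 2: cgaaaacTTTCACTTTTCTTTTCtcggaag
SP140L start: taaatacTTTCACTTTTCTTTTCcccattt
SP100 start 1: taaatacTTTCACTTCTCTTTTCcccattt
The run at SP110 start 1 is the reverse complement of the run at SP110 start 2 and at SP140L, and the run at SP100 start 1 has 1 mismatch to it. The window of SP100 start 2 held no copy with at most 1 mismatch. The SP140 window held no whole copy, but it was cut at the SP140 start (chr2:230225736). That start lies inside the run at SP110 start 1 (chr2:230225726-230225741), so the SP140 window holds only a part of it. GENCODE places the SP140L run outside any exon. The runs at SP110 start 2 and SP100 start 1 overlap untranslated exon sequence of longer transcripts. The run at SP110 start 1 overlaps untranslated exons of SP110 and SP140. It reaches past the highest annotated position of SP110 (chr2:230225729), so only a part of it lies in that gene. Among 35116 promoter windows of 250 bases, searched on both strands, these 3 exact copies were all there were (0.00854%), and 12 windows (0.0342%) held the run with at most 1 mismatch. The run was picked as the longest string shared by both SP110 windows and the SP140L window, so its rarity elsewhere is no support. Its first 8 letters, TTTCACTT, are common to all 4 windows and occur in 1.37% of all windows. They also lie in the window of SP140, which had at most 3 counts in any library.

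A pair of motifs known from interferon biology were searched in the same windows on both strands. The gamma-activated site TTCNNNGAA, through which IFNγ signaling reaches its target genes, occurred once in the family, 38 bases before SP110 start 2, where its first bases overlap the end of the common run. It occurred in 6.57% of all windows. The core of the interferon-stimulated response element, bound by IRF proteins, was searched as a fixed pattern with no mismatch allowed. In that exact form it matched no window of the family and 3.02% of all windows. Imperfect copies of this core were not searched for, so their share of all windows is not known. The common run at SP110 and SP140L does hold a near match, TTTCACTTTT, which differs from the core at 1 fixed letter. The SP140 window holds the same letters. The windows of SP140L and SP100 start 1 were identical at 207 of 222 aligned positions (93.2%), whereas other pairs in the family matched at 56.4% to 69.9%. SP110 start 1 and the SP140 start lie 100 bases apart, head to head, and only SP110 of the pair was counted above the floor of 3 counts. A match of letters describes these windows and does not show binding.

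SP110 encodes a nuclear body protein whose inherited loss causes an immunodeficiency with liver disease. SP110 had 0, 0 and 3 counts in C and none in any D library. With IFNγ it had 411, 510 and 285 counts in I (20.3, 27.8 and 14.9 CPM) and 181, 204 and 145 counts in DI (9.29, 10.5 and 6.53 CPM). The ratio of I to C was 365.9 from the summed counts, with a 95% counting interval of 124.9 to 1777, and DI was at least 55.68-fold higher than D, taking 3 counts per library as the floor. Both comparisons were called (adjusted p = 0.000227 for I against C and 0.000375 for DI against D), and both calls were lost without replicate 1 of every group (0.0544 and 0.0713). Intervals and floors cover counting error only, and the log2 fold changes fitted for genes at 0 depend on edgeR's prior count, so for SP100, SP110 and SP140L they are not given in comparisons with C or D.

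SP110 was also the gene of the 6 that differed most between DI and I. All 3 DI libraries lay below all 3 I libraries, with a mean of 8.761 ± 2.02 CPM (SD, n = 3) against 21.03 ± 6.47 CPM. How many of all genes show such separation between groups was not counted. The ratio of DI to I was 0.457, 0.376 and 0.437 for replicates 1, 2 and 3. The log2 fold change was −1.26 (SE 0.472, adjusted p = 0.325), and with the replicate number as a block it was −1.25 (SE 0.296, adjusted p = 0.0337), a fit in which 10.5% of all genes were called. DESeq2 also called it (−1.26, adjusted p = 0.0109). For comparison, IRF1, a transcription factor that IFNγ induces, had a log2 fold change of −0.16 between DI and I (SE 0.127, adjusted p = 0.694). SP110 had too few counts in C and D for the interaction to be read.

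SP100 encodes a constant resident of the bodies that is also a target of autoantibodies in primary biliary cholangitis. SP100 had no count in any of the 6 libraries without IFNγ. It had 90, 101 and 12 counts in I (4.45, 5.51 and 0.629 CPM) and 62, 45 and 9 counts in DI (3.18, 2.31 and 0.405 CPM). Every library with IFNγ was therefore above every library without it, by at least 20.35-fold for the mean of I and at least 12.49-fold for the mean of DI against a floor of 3 counts per library. The test nevertheless missed the threshold (adjusted p = 0.0556 for I against C and 0.103 for DI against D). With the replicate number as a block both comparisons were called (adjusted p = 0.000703 and 0.00153), as they were by DESeq2 (3.26e-06 and 4.28e-05), without the filter on low counts (0.0114 and 0.0251) and without replicate 3 of every group (0.00785 and 0.0122). Without I replicate 3 or DI replicate 3, I against C was called (0.0276 and 0.0394) and DI against D was not (0.0541 and 0.0621). Leaving out any other 1 library gave no call, with adjusted p of 0.0534 to 0.157 for I against C and 0.105 to 0.281 for DI against D. SP100 was also not called without replicate 1 of every group (0.668 and 1), without replicate 2 of every group (0.451 and 0.578), or in I against C with only those 2 groups in the fit (0.0943).

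The spread of SP100 came from replicate 3. In I its highest library was 8.76 times its lowest and in DI 7.85 times, and the lowest was replicate 3 in both groups. Replicate 3 was also the lowest for SP140L, SP110 and PML in both groups, but by less, at 34% and 40.2% of the highest library for SP140L, 53.7% and 62.4% for SP110, and 86.8% and 88.1% for PML in I and DI. IRF1 was not low there, at 380.5, 409.3 and 442.5 CPM in I and 375.7, 341.8 and 382.7 CPM in DI. STAT2, a further factor of the interferon pathways, stood at 150.3, 149.4 and 103.8 CPM in I and at 117.4, 115.9 and 95.5 CPM in DI. The part of replicate 3 in the SP100 result was measured only by leaving it out, as above, and the reason for its low level was not tested.

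**Figure D2:**
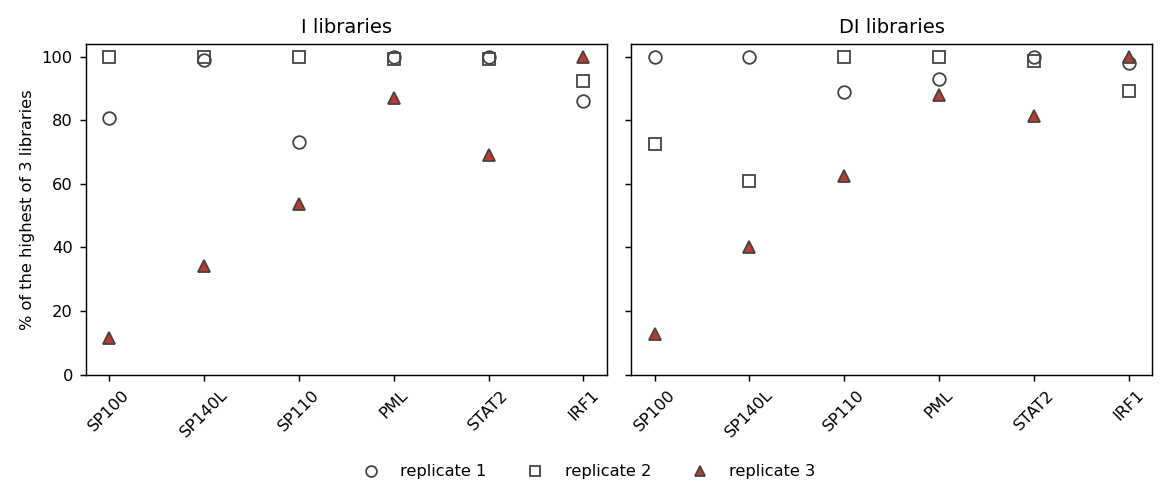
Level in each library as a percentage of the highest of the 3 libraries of its group (y axis, from 0) for 6 genes (x axis) in I (left) and DI (right), with replicate 3 as filled triangles. SP100 in replicate 3 is at 11.4% in I and 12.7% in DI, whereas IRF1 is highest there in both groups.

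SP140L is a close relative of SP140 and SP100 whose function is little known. SP140L had 1, 0 and 0 counts in C and 3, 0 and 0 in D. IFNγ brought it to 71, 65 and 23 counts in I (3.51, 3.55 and 1.21 CPM) and 72, 44 and 33 counts in DI (3.70, 2.26 and 1.49 CPM). Its I and DI libraries overlapped, and no library without IFNγ reached the lowest of them. From the summed counts, the ratio of I to C was 144.7 (95% counting interval 25.6 to 5751) and that of DI to D was 46.73 (15.68 to 229.2). SP140L was called in I against C (adjusted p = 0.00575) and in DI against D (0.0132). The second call was lost without D replicate 2 (0.0544), without D replicate 3 (0.0576) or with only the D and DI libraries in the fit (0.0541), and without replicate 1 of every group I against C gave 0.16 and without replicate 2 it gave 0.144. DI against D gave 0.235, 0.192 and 0.0646 without replicates 1, 2 and 3 of every group. Between DI and I its log2 fold change was −0.15 (SE 0.707, adjusted p = 0.971), with an error wide enough to hold the difference seen for SP110. SP140, the remaining gene of the family, had 0 to 3 counts per library and was not tested.

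DAXX lies at chr6:33318558-33323016 on the minus strand, in the MHC region, and encodes the H3.3 chaperone. DAXX stood at 123.7, 117.1 and 148 CPM in C and 118.3, 103 and 132.1 CPM in I. It stood at 108.6, 101.4 and 121.7 CPM in D and 98.7, 107.5 and 126 CPM in DI. All 4 groups overlapped, and replicate 3 was the highest library in each of them. The log2 fold change was −0.14 (SE 0.135, adjusted p = 1) for I against C and 0.002 (SE 0.135, adjusted p = 1) for DI against D. Every replicate number had less DAXX in D than in C, at ratios of 0.877, 0.866 and 0.822, while DI to I gave 0.834, 1.04 and 0.954. Averaged over both IFNγ states (D and DI against C and I) the change was −0.16 (SE 0.0958, adjusted p = 0.352), and with the replicate number as a block it passed the test at −0.16 (SE 0.0499, adjusted p = 0.0373). In that average, none of the 6 genes was called without the block, against 7.68% of all genes.

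ATRX lies at chrX:77504878-77786233 on the minus strand and encodes the ATPase that partners DAXX at repeats and telomeres. ATRX stood at 148.9, 170.9 and 120.1 CPM in C and 168.7, 203.2 and 146.1 CPM in I. With the hairpin induced it stood at 166.9, 207.6 and 134.4 CPM in D and 161.4, 220 and 135.9 CPM in DI. Replicate 2 was the highest and replicate 3 the lowest in every group, so the groups overlapped while the replicates kept their order. The log2 fold change was 0.235 (SE 0.217, adjusted p = 1) for I against C and 0.02 (SE 0.216, adjusted p = 1) for DI against D. ATRX was higher in I than in C within each replicate number, by 1.13, 1.19 and 1.22 times, and this small rise was called only when the replicate number was a block within each doxycycline arm (0.24, SE 0.0588, adjusted p = 0.0107), a fit that called 9.18% of all genes higher. The hairpin comparison gave 0.21 (SE 0.217, adjusted p = 0.742) for D against C.

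**Figure D3:**
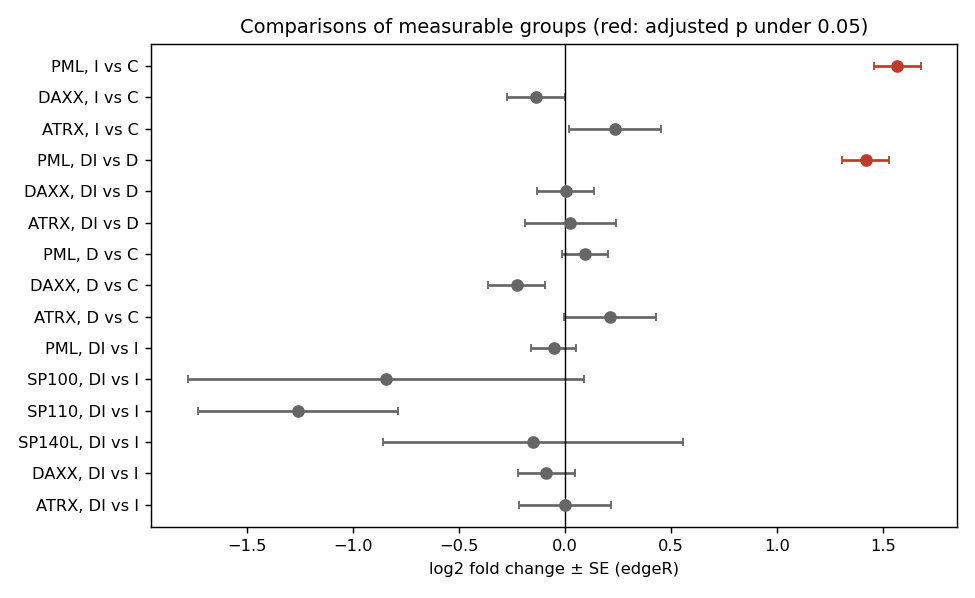
Log2 fold changes (x axis) with bars of 1 SE from the edgeR fit, with adjusted p under 0.05 in red, for PML, DAXX and ATRX in 4 comparisons and for all 6 genes in DI against I. SP100, SP110 and SP140L are not plotted against C or D, where they had at most 3 counts per library. Of the values plotted, PML in I against C and in DI against D passed the test, and SP110 in DI against I lies lowest at −1.26 with a wide error.

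Levels were set against each other per kilobase of exon, with the exons of all transcripts of a gene merged. In C the order was DAXX (42 CPM per kb), ATRX (7.61) and PML (3.73), with no overlap between neighbours, and the speckled protein genes were at or near 0. In I, PML rose to 11 CPM per kb and overlapped ATRX at 8.96, while DAXX stayed highest at 38.2. SP110 followed at 3.06, clear of the genes on either side, and SP140L at 0.488 and SP100 at 0.28 overlapped each other. The order in DI was the same, with PML at 10.6 and ATRX at 8.95 overlapping, SP110 at 1.28, SP140L at 0.439 (0.263 to 0.654) and SP100 at 0.156 (0.0321 to 0.252). SP140L and SP100 did not overlap in DI, by a narrow margin, and this order was not tested.

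**Figure D4:**
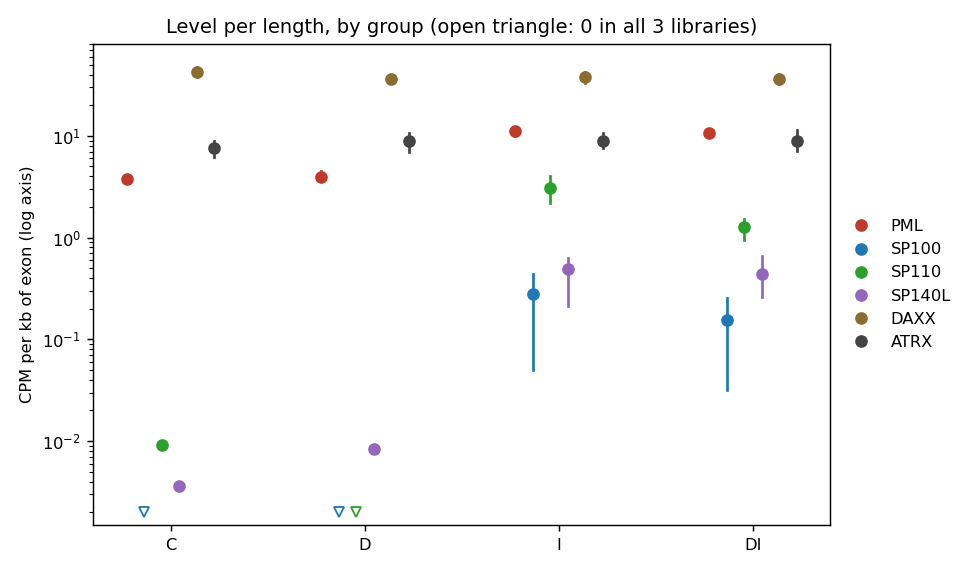
CPM per kb of merged exon (y axis, log scale) by group (x axis), with points at the mean of 3 libraries, bars from the lowest to the highest library where no library is at 0, and open triangles for groups at 0 in all 3 libraries. DAXX leads in every group, and PML passes ATRX in mean level in I and DI, where the ranges of both overlap.

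Genes around the bodies were examined in lists written from general knowledge. The histone H3.3 deposition list, DAXX and ATRX included, had none of 10 tested genes called in I against C or in DI against D. Over all genes, 2.1% and 1.67% were called higher in these comparisons. An absence of calls in lists as short as those of this paragraph cannot be told apart from these shares. H3-3B, a gene for H3.3 itself and the highest of the list, stood at 723.1 ± 112 CPM in C and 808.8 ± 114 CPM in I (SD, n = 3; log2 fold change 0.16, SE 0.181, adjusted p = 1). The list's median log2 fold change was −0.06 in I against C, beside −0.01 over all genes. None of 8 genes of the SMC5/6 complex, which holds viral DNA silent at PML bodies, was called with IFNγ, and SMC5 stood at 93 ± 2.74 CPM in C and 86.45 ± 3.31 in I. None of 12 genes of PML turnover was called either, among them CSNK2A1, a kinase that marks PML for degradation (257.6 CPM in C and 252.4 in I).

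PML body residents and clients gave 1 call of 20 in each IFNγ comparison, beside 2.1% and 1.67% of all genes. It was ISG20, an exonuclease that degrades viral RNA and an interferon-induced visitor of the bodies. ISG20 rose from 3.475 ± 0.306 CPM in C to 17.22 ± 0.605 in I (SD, n = 3; log2 fold change 2.31, SE 0.247, adjusted p = 0.000227) and from 2.196 ± 0.657 in D to 8.645 ± 1.91 in DI (1.98, SE 0.248, adjusted p = 0.000936; 0.122 without replicate 1 and 0.0856 without replicate 2 of every group). Its level in DI against I was lower by a log2 fold change of −0.99 (SE 0.235, adjusted p = 0.0999; 0.0177 with the replicate number as a block). The block added MORC3 and TOP3A to the calls in I against C, for 2 higher and 1 lower, beside 6.02% of all genes called with the block.

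Averaged over both IFNγ states, doxycycline moved 6 of these 20 genes past the test, 5 higher and 1 lower, beside 7.68% of all genes called. Among the 5, and named after their values were seen, were KAT6A and CREBBP, both acetyltransferases, the topoisomerase TOP3A and the deubiquitinase USP7, with log2 fold changes from 0.27 (USP7) to 0.45 (CREBBP). ISG20 was the gene that was lower (−0.83, SE 0.17, adjusted p = 0.0171). With the replicate number as a block, 8 were called higher and 3 lower, beside 29% of all genes. The same average called 1 of the 19 SUMO genes higher and 3 lower, and 4 higher and 5 lower with the block, read against these same shares of 7.68% and 29%.

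The SUMO pathway, which PML depends on, had no call among 19 tested genes with IFNγ in either doxycycline state. Over all genes 2.1% and 1.67% were called higher there, shares from which no call among 19 cannot be told apart. UBA2, part of the SUMO activating enzyme, was the highest of the list by its mean over the 12 libraries. It stood at 343.8 ± 15.4 CPM in C and 331 ± 7.09 in I. With the hairpin induced, 3 of the 19 were called lower in D than in C, beside 1.23% of all genes, among them SENP2 and SUMO2, which are named after their values were seen. SENP2, a SUMO protease, fell from 96.14 ± 13.8 to 59.12 ± 4.46 CPM (−0.70, SE 0.127, adjusted p = 0.0278) and from 100.4 ± 11.8 in I to 59.5 ± 3.12 in DI (−0.75, SE 0.127, adjusted p = 0.0262). SUMO2, a modifier of the pathway, fell from 338.2 ± 24.1 CPM in C to 226.5 ± 13.8 in D (−0.58, SE 0.0864, adjusted p = 0.0135), and its change between I and DI was −0.44 (SE 0.0862, adjusted p = 0.0523; 0.0025 with the block).

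These SUMO calls depended on the libraries kept. In D against C, SENP2 lost its call without C replicate 2 or 3 or any 1 of the D libraries (adjusted p up to 0.132), and SUMO2 without C replicate 2 or 3 or D replicate 1 (up to 0.0671). In DI against I, SENP2 lost its call without C replicate 2, I replicate 2 or 3 or any 1 of the DI libraries (up to 0.145). Leaving out 1 replicate number from all groups ended both calls in D against C, with adjusted p from 0.159 to 0.244 for SENP2 and from 0.0974 to 0.331 for SUMO2. The direction was lower in every one of these fits. With the replicate number as a block, D against C also gave 4 SUMO genes as higher, PIAS3, RANBP2, SENP1 and SENP5, beside 6.23% of all genes called higher in that fit.

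A list of TRIM genes, relatives of PML in the tripartite motif family, was made of genes known to respond to interferon, so its direction is not independent evidence. Of 11 listed genes 9 were tested, and TRIM6 and TRIM34 were not, being at or near 0. In I against C 6 of the 9 were called higher, beside 2.1% of all genes, and in DI against D 5 of the 9, beside 1.67%. TRIM5, TRIM26 and TRIM38 did not pass in either comparison, and TRIM14 passed in I against C and not in DI against D (adjusted p = 0.0347 and 0.232). With the replicate number as a block 9 of 9 were called higher in both, beside 4.88% and 3.77% of all genes. The median log2 fold change of the 9 was 2.72 in I against C, beside −0.01 over all genes. TRIM21, an antibody receptor and ubiquitin ligase, rose from 0.2635 ± 0.186 CPM in C to 58.92 ± 9.25 in I (SD, n = 3; adjusted p = 1.24e-06). TRIM22, an antiviral factor, rose from 0.2104 ± 0.225 to 43.33 ± 18 CPM (adjusted p = 0.000146; 0.0851 without replicate 1 of every group). TRIM56 rose from 4.837 ± 1.4 to 49.71 ± 5.83 CPM and TRIM69 from 38.73 ± 6.74 to 255.3 ± 16.5 CPM (adjusted p = 3.53e-06 and 1.98e-06). PML itself, at 1.57, thus changed less than TRIM69 at 2.72, and the difference between these genes was not tested.

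**Figure D5:**
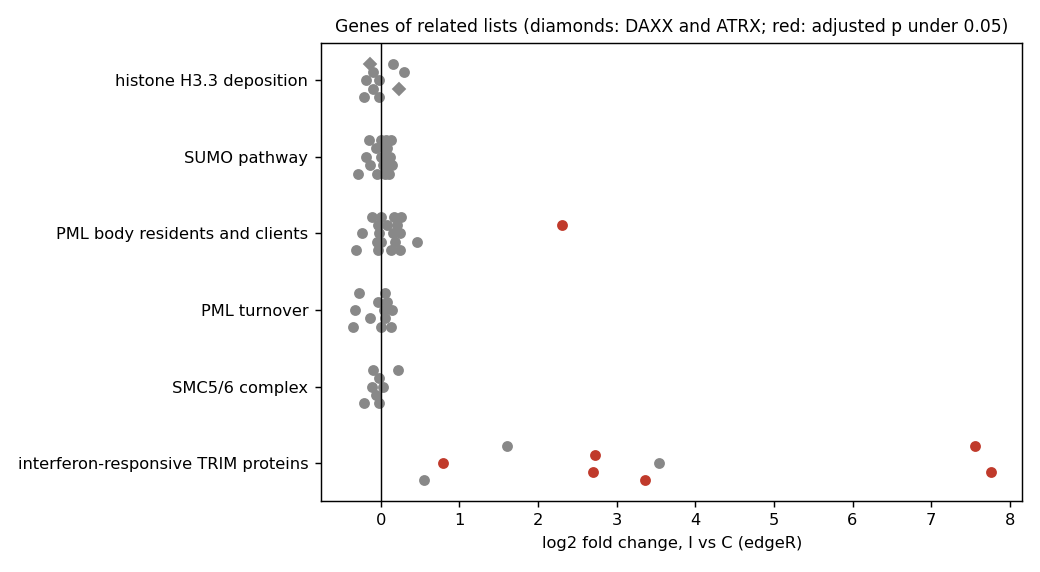
Log2 fold change in I against C (x axis, edgeR) of each tested gene of 6 lists (rows), with adjusted p under 0.05 in red and diamonds for DAXX and ATRX; values of genes near 0 counts in C depend on the prior count. The H3.3, SUMO, turnover and SMC5/6 lists sit between −0.36 and 0.29, whereas TRIM genes reach 7.76.

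Neighbouring protein-coding genes within 250 kb were set beside the members. Over all genes, 2.1% were called higher in I against C and 1.67% in DI against D. The neighbours of each member are too few to be told apart from these shares. PML had 7 tested neighbours and none was called, including STOML1, which lies 51 bases from PML (log2 fold change 0.09, SE 0.198, adjusted p = 1). Around the speckled protein cluster, the tested genes outside the family were TRIP12, FBXO36, SLC16A14 and CAB39, and none was called in either IFNγ comparison. DAXX, which did not pass the test for IFNγ, had 1 called gene among 18 tested neighbours. It was TAPBP, the tapasin gene of MHC class I peptide loading, 4171 bases away, which rose by 3.56 on the log2 scale in I against C (SE 0.194, adjusted p = 1.09e-06) and by 3.27 in DI against D. ATRX likewise had 1 called gene among 5, the copper transporter ATP7A, 124423 bases away, with a log2 fold change of 1.08 (SE 0.0918, adjusted p = 3.59e-05). In both regions the neighbour was called and the member was not, while at the speckled protein cluster the calls were of family genes alone.

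The genes whose pattern over the 12 libraries lay nearest to each member were found among 13960 genes by the root mean square difference of centred log2 CPM, given here as a description. PML was nearest to NUCB1 (0.12), LRCH2 (0.123) and FAR2 (0.157). SP110 was nearest to IFI27 and C2 (both 0.437), and IFI27 went from 96 CPM in I to 27.4 in DI. SP140L was nearest to CCR7 (0.219), RUNX1 (0.42) and CETP (0.504). SP100 had no close match, with ERP27 (0.544), OAS1 (0.577) and XAF1 (0.609) first. DAXX was nearest to PM20D2 (0.052) and ATRX to SUPT6H (0.068), both at levels that changed little between groups, so a small difference is easily reached there.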

How the data were processed

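RNA of 12 SK-N-DZ libraries (C, D, I and DI, 3 each) was sequenced by the study. The authors deposited raw counts per gene as whole numbers for 43769 genes, of which 17165 had no count. The aligner, the counting tool and its use of strand are not given in the sources used here. The authors' own comparison tables, whose tool the submitters' processing notes name as DESeq2, hold fold changes and p-values and were not used. A further 18 per-library columns with names that no label explains were left out.

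With edgeR 4.0.16 (run in R 4.3.3 beside limma 3.58.1), 15828 genes passed filterByExpr at a minimum count of 10, were TMM scaled and were fitted in 1 model of the 4 groups. Tests were two-sided quasi-likelihood F tests with Benjamini-Hochberg adjustment over all genes tested. The SE is the log2 fold change over the square root of F. A library's floor of 3 counts equals 0.135 to 0.187 CPM. Counting intervals are exact at 95%. Alternatives were DESeq2 1.42.0, other scalings, filters and thresholds, replicate blocks and left-out libraries, and the scripts were tested on simulated data. Same-numbered libraries deviated together (correlations 0.338 to 0.804 in 18 pairs, −0.628 to 0.143 in 36 pairs of other numbers), so the numbers appear to pair the samples. The main model left this pairing out, and only the replicate blocks among the alternatives took it in. No 2 replicates were alike within sampling noise (chi-square per gene 18.4 to 78.6). Positions come from GENCODE release 29, which held every gene identifier. Promoters were aligned with Biopython 1.88.

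The 6 genes, the lists and the tests were chosen with earlier results of these data known. Named beside the 6 genes are up to 4 genes of a list that were called with IFNγ and had the largest change, or else the list's highest gene, and for each of the 6 the 3 genes nearest in pattern and at most 3 neighbours. A few other genes that these rules pick are not reported here.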

Additional observations from a re-analysis of the deposited data

How the results depend on the processing

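PML was called in I against C and DI against D under each of the 24 alternatives run for these comparisons, with log2 fold changes of 1.48 to 1.64 and 1.37 to 1.53 where libraries were left out. The number of the 6 genes called was 3 in both comparisons and became 4 in both with the replicate block, which added SP100, 5 in I against C and 4 in DI against D with the replicate block within each doxycycline arm (SP100 and, in I against C, ATRX), 1 in DI against I with DESeq2 and with the replicate block (SP110 both times), and 1 in the doxycycline average with the replicate block (DAXX). Leaving out libraries gave 1 to 4 genes in I against C and 1 to 3 in DI against D; the 1 was without replicate 1 of every group, where PML alone was called, SP110 had an adjusted p of 0.0544 and 0.0713, and SP140L of 0.16 and 0.235. Without replicate 2 of every group SP140L had 0.144 and 0.192. The option to leave out a replicate number was added after the data were seen. Neither block changed a further call of the 6 genes.

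Changes of sign were all of values near 0 that passed no test. With library size alone, which moved the median of all genes by 0.085 in DI against I, these were DAXX (−0.035) and ATRX (−0.016) in DI against D, and PML (0.037), DAXX (0.004) and ATRX (0.091) in DI against I. ATRX in DI against I was 0.001 with no filter, 0.002 with the CPM filter and 0.012 with only the 2 groups, and DAXX in DI against D was −0.001 with the block within each arm. Where libraries were left out, ATRX ranged from −0.217 to 0.142 in DI against I, −0.19 to 0.195 in DI against D and −0.004 to 0.175 in the average. DAXX ranged from −0.102 to 0.078 in DI against D and −0.195 to 0.016 in DI against I. PML ranged from −0.014 to 0.154 in D against C and −0.035 to 0.049 in the average, and SP140L from −0.559 to 0.14 in DI against I. The cause was not tested.

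Counts over all genes moved more: 350, 273, 194, 106, 1216 and 0 in I against C, DI against D, D against C, DI against I, the average and the interaction became 953, 706, 2200, 1658, 4593 and 0 with the replicate block, and 530, 649, 460, 1992 and 1 with DESeq2 for the first and the last 4. D against C gave 119 without the filter, 32 at an adjusted p under 0.01 and 16 with only the 2 groups, and the average gave 752 and 304 for the first 2 of these. DI against I gave 30 at 0.01 and 0 with only the 2 groups. The block within each arm gave 2318, 1770 and 4 for the IFNγ comparisons and the interaction. Leaving out libraries gave 127 to 364, 98 to 279, 0 to 195, 0 to 96 and 71 to 1362 for the first 5, the lowest without replicate 1 of every group. Depth limited SP100, SP110 and SP140L in C and D, where at most 3 counts per library allow no fold for doxycycline or the interaction.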
